A study of Mus musculus with 2 samples.

Results

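Col2a1, Col9a1, Col9a2, Col9a3, Col11a1, Col11a2, Acan, Hapln1, Matn4 and Mgp are 10 genes of cartilage matrix, and they were examined in single cells of mouse glioblastoma, 10 of the 19059 genes in the count matrices. They were chosen by symbol, with their levels in these tumors already known, so the height of their levels in tumor cells is given as a description, with no test. Orthotopic tumors were grown in C57BL/6J mice from mGSC, 1 mouse glioblastoma stem cell line with the genotype Trp53+/- and Nf1+/-, so every tumor of both groups carried these alleles. The mice received vehicle or Xevinapant every day. Xevinapant is a SMAC mimetic, a small molecule that antagonizes inhibitor of apoptosis proteins. The series' design gives 4 tumors per group, and the files hold 4 matrices per group, from which 36837 of 50962 retained cells were gated as tumor cells. The study's methods describe the mice as young females when purchased.

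Cartilage owes its tensile strength to fibrils of type II collagen, whose chain is the product of Col2a1. Type XI collagen, with chains from Col11a1 and Col11a2, lies inside these fibrils and helps to start their assembly, and type IX collagen, built from Col9a1, Col9a2 and Col9a3, decorates their surface. Aggrecan, the product of Acan, is a large chondroitin sulfate proteoglycan that binds hyaluronan, an attachment held in place by the link protein of Hapln1. Matrilin 4, from Matn4, is an adaptor protein of matrix networks, and matrix Gla protein, from Mgp, inhibits calcification in cartilage and in vessel walls. In the brain, aggrecan and link proteins are known from perineuronal nets, whereas fibrils of type II collagen are not a feature of brain matrix.

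In the GRCm38 build (GENCODE annotation) Col2a1 lies on the reverse strand at chr15:97975602-98004695. The type IX genes lie apart from each other on the forward strand, Col9a1 at chr1:24177610-24252684, Col9a2 at chr4:121039385-121055322 and Col9a3 at chr2:180597790-180622189. So do the type XI genes, Col11a1 at chr3:114030540-114220718 and Col11a2 at chr17:34039437-34066685. Acan lies at chr7:79053483-79115099 and Hapln1 at chr13:89539796-89611652, both on the forward strand, and Matn4 at chr2:164389393-164405160 and Mgp at chr6:136872435-136875823, both on the reverse strand. Promoter sequences of RefSeq (GRCm38.p6) matched 7 of the 10 genes. Col9a1, Col11a2 and Acan were the genes of the pairs with the highest co-detection in single tumor cells among the collagens and Acan, as described with the odds ratios, and the 250 bases before their RefSeq starts are shown for that reason, 5′ to 3′ on the gene's strand, which is the forward strand for all of them. RefSeq gives Col9a1 a pair of starts, and its starts of Col11a2 and Acan differ from the GENCODE gene starts given above. Capitals mark GC boxes, the letters GGGCGG or their reverse complement CCGCCC.
Col9a1, first start, chr1:24177360-24177609: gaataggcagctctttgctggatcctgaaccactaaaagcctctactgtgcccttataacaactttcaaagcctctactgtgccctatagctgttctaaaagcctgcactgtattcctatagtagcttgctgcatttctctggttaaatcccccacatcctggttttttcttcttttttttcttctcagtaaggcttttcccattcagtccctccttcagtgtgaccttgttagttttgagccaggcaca
Col9a1, other start, chr1:24194953-24195202: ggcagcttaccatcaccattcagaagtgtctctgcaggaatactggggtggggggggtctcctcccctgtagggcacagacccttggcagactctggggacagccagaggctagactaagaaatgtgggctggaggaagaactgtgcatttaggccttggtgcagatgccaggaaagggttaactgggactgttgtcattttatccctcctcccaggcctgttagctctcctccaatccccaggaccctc
Col11a2, chr17:34038888-34039137: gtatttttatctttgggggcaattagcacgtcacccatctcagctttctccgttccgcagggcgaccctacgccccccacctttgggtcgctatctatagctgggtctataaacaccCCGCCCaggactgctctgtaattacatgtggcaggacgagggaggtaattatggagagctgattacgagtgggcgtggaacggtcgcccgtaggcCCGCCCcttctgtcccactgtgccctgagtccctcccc
Acan, chr7:79052976-79053225: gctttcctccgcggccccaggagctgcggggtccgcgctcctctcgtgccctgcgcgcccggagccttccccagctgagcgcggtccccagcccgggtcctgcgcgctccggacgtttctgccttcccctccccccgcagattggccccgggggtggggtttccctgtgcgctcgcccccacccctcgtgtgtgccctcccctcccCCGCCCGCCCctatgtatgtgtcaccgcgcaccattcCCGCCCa
Col11a2 holds 2 GC boxes and Acan 3, counting overlapping matches on both strands, and neither window of Col9a1 holds one. The same letters occur in 32.7% of all 32851 promoter windows of this length. The word ACAAT, or ATTGT on the other strand, which SOX proteins can bind, is in none of these windows and is in 27.7% of all windows, so a match or its absence describes only these letters.

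The 8 matrices held 56943 barcodes, with 71835789 to 300206053 UMIs per matrix. A UMI is a tag that marks 1 captured molecule, here a ligated probe. Within a group, 3 pairs of matrices were nearly alike (SD of log2 expression differences 0.133 to 0.200, against 0.416 to 0.499 for the 9 other pairs) and were joined. This gave 5 samples, 3 of vehicle (matrices 1 and 3 as one sample, matrix 2, matrix 4) and 2 of Xevinapant (matrices 1 and 2, matrices 3 and 4). Batch date and sequencing pool followed the treatment, so neither can be told apart from it. The vehicle label names total RNA and the Xevinapant label polyA RNA, and the names of the Xevinapant matrices contain the word Vehicle; the treatment in the sample's own label was followed. The matrices of the 2 groups shared 1413 barcodes, of which 1121 had a more than 50-fold difference in UMIs. Over both groups, 685 gated tumor cells carried a shared barcode. Tests of the 10 genes whose call changed without these barcodes are given without them as well. Nothing says which mouse each matrix came from, so the p-values measure the spread between these samples only. The gated tumor cells carried the glial markers of the line (Olig2 at 778 ± 125 CPM, the UMIs of a gene per 1000000 UMIs of the class; SD, n = 5) with 15.5 to 20.3 CPM of neuronal and 19.4 to 33.1 CPM of immune markers summed over each list. Fibroblast markers summed to 79.2, 29.4 and 48.2 CPM in the tumor cells of the vehicle samples and to 259 and 86.4 CPM in those of the Xevinapant samples, against 144869 CPM or more in gated fibroblasts, and 2 to 5 of these 8 markers were under 1 CPM in tumor cells. Chondrocyte and bone markers summed to 208, 101 and 69.5 CPM against 515 and 197 CPM. Both sums were highest in Xevinapant 1 and 2, and their part in the results was not tested. The tumor gate asked for glial markers and limited immune, endothelial and fibroblast markers, and the fibroblast gate asked for fibroblast markers. The glial, immune and fibroblast values are thus partly set by the gates and are no check of purity. The neuronal list and the chondrocyte and bone list set no gate. The gates cannot separate tumor cells from normal glia of the same state.

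Tumor cells held large amounts of the major cartilage collagens and of aggrecan in both groups. The Col2a1 level in tumor cells was 1702 CPM in vehicle 1 and 3, 1581 in vehicle 2, 483 in vehicle 4, 3960.3 in Xevinapant 1 and 2 and 1521 in Xevinapant 3 and 4. These values spanned 8.19-fold, and the groups overlapped. For Col9a1, tumor levels were 1282, 773 and 654 CPM in the vehicle samples, in the same order, and 2414 and 918 CPM in the Xevinapant samples. Col9a3 was at 922, 408 and 489 CPM with vehicle and at 2740.1 and 984 CPM with Xevinapant, and its partner chain Col9a2 was at 121, 48.3 and 30.7 against 317 and 127 CPM. Both Xevinapant samples thus lay above the vehicle samples for Col9a2 and Col9a3, by a small margin in Xevinapant 3 and 4. The same was so for 18.2% of the 14352 genes tested in tumor cells.

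The type XI chains were also highest in Xevinapant 1 and 2 and lowest in vehicle 4. Col11a1 was at 691, 408 and 322 CPM in the vehicle tumors and at 1804 and 657 CPM in the Xevinapant tumors. Col11a2 was at 1237, 687 and 520.4 CPM with vehicle and at 3883 and 1208 CPM with Xevinapant, a range of 7.46-fold over the samples. Xevinapant 3 and 4 did not exceed vehicle 1 and 3 for either chain. Acan had the narrowest range of the 10 genes, at 735, 703 and 347 CPM against 1158 and 620.4 CPM, 3.34-fold with overlapping groups.

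Matn4 and Mgp had the widest ranges over samples of the 10 genes (19.4-fold and 16.3-fold), while Hapln1 ranged 4.39-fold. The Hapln1 level was 64.1, 28.6 and 14.6 CPM in the vehicle samples and 39.99 and 39.3 CPM in the Xevinapant samples, which lay within the vehicle range. Mgp was at 162, 50.2 and 34.2 CPM with vehicle and at 557 and 196 CPM with Xevinapant. Both Xevinapant samples were thus above all vehicle samples, as for 18.2% of all genes tested. Matn4 stayed at 1.31 to 6.47 CPM in 4 samples and reached 25.5 CPM in Xevinapant 1 and 2. Xevinapant 1 and 2 held the highest tumor level of 9 of the 10 genes, with Hapln1 as the exception, and vehicle 4 the lowest of 8, with Col9a3 and Matn4 as the exceptions. Xevinapant 1 and 2 also had the largest share of tumor cells gated as committed OPC-like (19.7%, against 5.51% to 11.4% elsewhere) and MES-like (8.26%, against 3.47% to 5.35%), and the part of these shares in its levels was not tested.

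**Figure D1:**
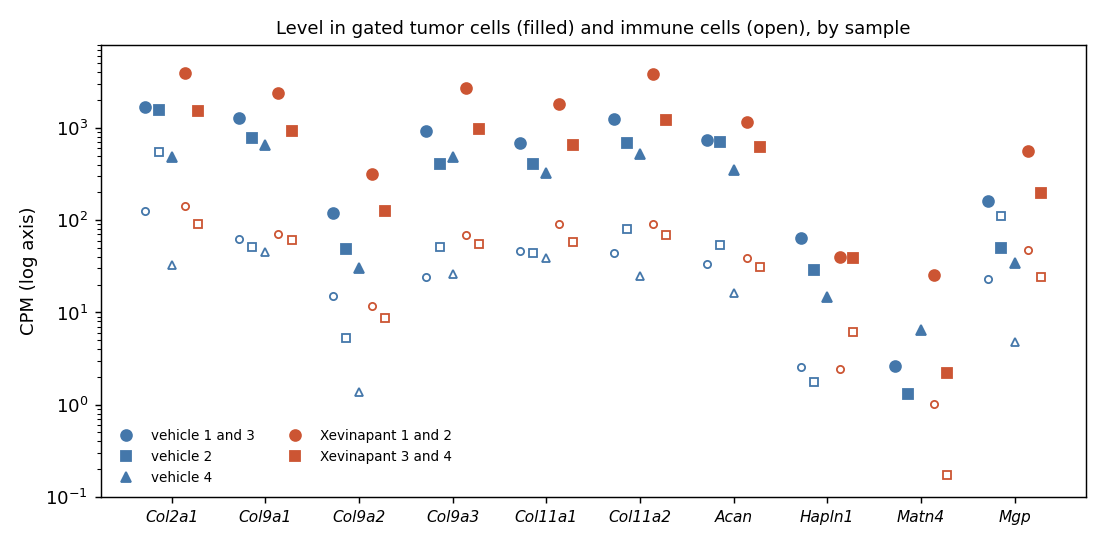
Level of each gene in CPM of summed UMIs (log axis) in gated tumor cells (filled) and immune cells (open) of each sample; shapes and colors name the samples, and immune values of 0 are left out. Xevinapant 1 and 2 is the highest filled point for every gene but Hapln1, and Mgp in vehicle 2 is the only case in which the immune point lies above the tumor point.

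Immune cells, which are not known to make these collagens, gave the background against which detection was read. Their levels averaged 5.06% to 11.7% of the tumor level of the same sample for Acan, Hapln1 and the 6 collagen genes and 2.39% for Matn4. For Mgp the mean was 53.9%, but it ranged from 8.52% to 220.0%, and in vehicle 2, which held the highest value, 106 of the 124 Mgp UMIs came from 1 immune cell. The 440 Col2a1 UMIs of 1 further immune cell made up 71.1% of that gene's immune UMIs in the same sample.

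Each cell was thinned to 3000 UMIs before detection was compared, since tumor cells were deeper (median 14217 to 18702 UMIs by sample) than immune cells (6583 to 7772 UMIs). After thinning, 66.3% ± 12.8 of tumor cells (SD, n = 5) held a Col2a1 UMI, against 19.8% ± 6.25 of immune cells. The share for Col9a1 was 65.5% ± 9.08 in tumor cells and 12.7% ± 1.96 in immune cells, and the share for Acan was 52.2% ± 9.79 against 6.91% ± 1.46. Col9a3, Col11a1 and Col11a2 were found in 56.4% to 62.4% of tumor cells and in 9.10% to 11.6% of immune cells, on average. This left out 2285 of 22258 vehicle and 1761 of 14579 Xevinapant tumor cells. Without thinning, 88.3% of the same tumor cells and 36.9% of the same immune cells held a Col2a1 UMI. These 6 genes were each in more tumor cells than not in the mean, though not in every sample. The exceptions were Acan at 39.8%, Col11a1 at 43.9% and Col2a1 at 46.1% in vehicle 4, Acan at 45.8% in Xevinapant 3 and 4, and Col9a3 at 49.6% and Col11a1 at 49.7% in vehicle 2. Col9a2 was found in 16.5% ± 8.60 of tumor cells, Mgp in 14.9% ± 12.5, Hapln1 in 6.95% ± 3.19 and Matn4 in 1.67% ± 2.16, each above its mean immune share (2.25%, 4.32%, 0.490% and 0.0292%). A tumor cell held UMIs of 4.04 of the 10 genes on average (range over samples 3.15 to 5.38), an immune cell of 0.780.

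The UMIs were unevenly spread over the tumor cells. The top 10% of tumor cells by Col2a1 held 59.2% of the thinned Col2a1 UMIs (range over samples 46.6% to 66.4%), and the highest cell held 490 of its 3000 UMIs in this single gene. For Col9a1 the same share was 46.1%, and for Col9a3, Col11a1, Col11a2 and Acan it lay between 51.2% and 53.1%. The higher shares of Mgp (90.4%) and Col9a2 (85.7%) stand beside detection in 14.9% and 16.5% of cells, and so few cells with a UMI raise such a share by themselves.

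Tumor states were set by marker genes, and each was compared with OPC-like cells, the largest state, in a fit across 13328 genes with the sample as a term. The same fit also held immune cells, endothelial cells and fibroblasts. The SE and p of a gene therefore take in its spread in these classes as well as in the tumor states. Committed OPC-like cells, marked by Gpr17 and other genes of premyelinating oligodendrocyte precursors, held more of 7 of the 10 genes than OPC-like cells did, against 15% of all genes called higher. Acan was 1.14 ± 0.34 higher (log2 fold change, SE, adjusted p = 0.00813) and Col9a1 1.14 ± 0.29 higher (adjusted p = 0.00224). In committed OPC-like cells Acan was at 1426, 1474 and 1117 CPM with vehicle and at 1602 and 1437 CPM with Xevinapant, whereas in OPC-like cells it was at 702, 596 and 328 against 1036 and 593 CPM. Every committed sample lay above every OPC-like sample for Acan. Col9a1 was at 2529, 1980.2 and 2061 CPM with vehicle and at 3701 and 2429 CPM with Xevinapant in committed OPC-like cells, and after thinning 93.7% ± 2.62 of these cells held a Col9a1 UMI.

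The other chains were called as well in this state. Col11a2 (1.11), Col11a1 (1.09), Col9a3 (0.92) and the sparse Matn4 (1.27) were higher on the log2 scale, as was Col9a2 by a value between those of Col9a3 and Col11a1, each in 5 of 5 samples, with adjusted p between 0.00528 and 0.0427. Hapln1 missed the threshold at 0.80 (adjusted p = 0.0508, higher in 4 of 5 samples), which it passed without the shared barcodes. Col2a1 did so at 0.48 (adjusted p = 0.569), although it was higher in 5 of 5 samples, and Mgp was at -0.22 (adjusted p = 0.780). Col2a1 and Mgp were thus not called where the type IX and XI chains were, and whether they differed from those chains was not tested. The SE of Col2a1 was 0.59, and the part of the immune and stromal classes of the fit in it was not tested. A committed OPC-like cell held UMIs of 5.49 of the 10 genes on average and 74.0% of these cells held at least 5, against 42.9% of all tumor cells.

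MES-like cells, gated by hypoxia and mesenchymal genes such as Ndrg1 and Vegfa, held more of 2 of the 10 genes than OPC-like cells did. This share was no larger than that over all genes, of which 23.3% were called higher. Col11a1 was 1.05 ± 0.31 higher than in OPC-like cells (adjusted p = 0.00444) and Acan 0.97 ± 0.34 higher (adjusted p = 0.0169). Col2a1 had the largest log2 difference of the 10, 1.30 ± 0.60, and Mgp 1.10 ± 0.50, both higher in 5 of 5 samples, but neither passed (adjusted p = 0.0685 and 0.0680). The Col2a1 level in MES-like cells was 4044, 3410.2 and 1589 CPM with vehicle and 7112 and 4202 CPM with Xevinapant. In OPC-like cells of the same samples it was 1643, 1319 and 456 CPM against 3894 and 1739 CPM, so the samples stood in the same order in both states, each MES-like value above the OPC-like value of its sample. Hapln1 was lower in 5 of 5 samples at -0.78 (adjusted p = 0.0616).

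AC-like cells, gated by astrocyte genes such as Gfap and Aqp4, were at the low end. There 9 of the 10 genes were lower than in OPC-like cells, against 30% of all genes called lower, and each of the 9 was lower in 5 of 5 samples. Col11a2 fell by 2.31 ± 0.45 (adjusted p = 2.67e-05) and Col9a1 fell by 2.27 ± 0.31 on the log2 scale (adjusted p = 3.49e-08). Col2a1 fell by 1.43 ± 0.60 (adjusted p = 0.0389), and its AC-like levels were 513, 606 and 222 CPM with vehicle and 1142 and 587 CPM with Xevinapant. Matn4, at 0.11, was the exception. Of thinned AC-like cells 57.8% ± 11.5 held a Col2a1 UMI, against 66.3% ± 12.8 of all tumor cells. The share with a Col9a1 UMI was 28.4% ± 5.85, against 65.5% ± 9.08.

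NPC-like cells, gated by neuronal genes, were lower for 8 of the 10 genes, against 23.7% of all genes called lower. Acan fell by 2.71 ± 0.38 (adjusted p = 3.30e-07), with levels of 64.1 to 183 CPM, and Mgp fell by 2.39 ± 0.59 (adjusted p = 0.00135). The 2 genes not called were Col2a1, at -1.40 (adjusted p = 0.0650) and lower in 5 of 5 samples, and Col9a2, at -0.11 (adjusted p = 0.844). Col9a2 stood at 18.4 to 63.7 CPM in 4 samples and at 579 CPM in the 26 NPC-like cells of Xevinapant 1 and 2. Without the barcodes that both groups share, Col9a2 was at -0.88 and Col2a1 at -1.69 on the log2 scale, and both were called, so that all 10 genes were lower.

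Tumor cells marked by Mfap4 and Cpxm2 differed from OPC-like cells in 3 of the 10 genes, against 5.9% of all genes called lower. Mgp fell by 3.04 ± 0.56 (adjusted p = 2.23e-04), with levels of 5.84 to 55.4 CPM. Hapln1 fell by 1.47 ± 0.34 (adjusted p = 0.00347) and Col11a1 fell by 1.20 ± 0.31 (adjusted p = 0.00843), each in 5 of 5 samples. The other 7 genes had log2 differences from -0.07 to -1.34 and none passed. The genes were chosen with these data known, so the state tests are no independent evidence for them. Without vehicle 4 the committed OPC-like count fell from 7 to 4 genes, and without vehicle 1 and 3 or without Xevinapant 3 and 4 the MES-like count fell from 2 to 1. The share of all genes called in these smaller fits is not given here, so the falls are not read as a result about the 10 genes.

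**Figure D2:**
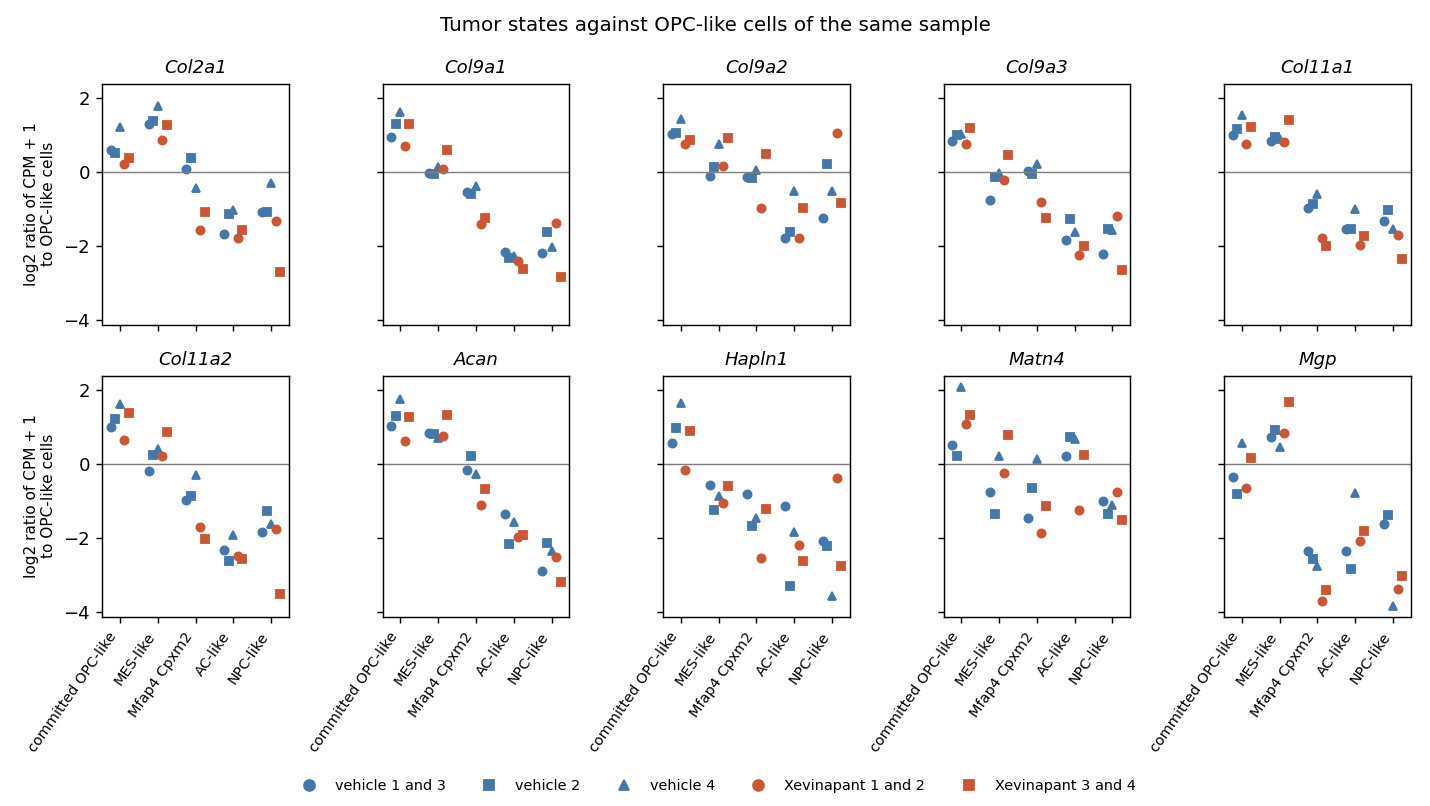
Log2 ratio of CPM + 1 in each tumor state to that in OPC-like cells of the same sample, for each gene; a point is 1 sample and the line marks no difference. Committed OPC-like points lie above the line in all 5 samples for 8 genes (all but Hapln1 and Mgp), and AC-like points lie below it in all samples for every gene but Matn4.

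Cells in S phase or in G2 and mitosis did not lack these genes. S-phase tumor cells held 42.7% (Mgp) to 91.3% (Hapln1) of the level of all tumor cells of their sample, averaged over 5 samples, with Col2a1 at 63.1% ± 7.27 and Acan at 82.0% ± 9.88. In G2 and mitosis the averages ran from 57.0% for Matn4 to 106% for Hapln1, with Col2a1 at 86.9% ± 11.7. The levels in S phase were therefore below the tumor average for all 10 genes in the mean, and for Col2a1 in each sample (55.8% to 73.8%).

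The 10 genes were found together in single cells. In thinned tumor cells the odds ratio of detection, which is above 1 where 2 genes share cells more than their separate shares give, had a median of 2.90 over the 45 pairs (range of pair medians 1.76 to 6.76). It was above 1 in all 5 samples for 44 of the 45 pairs. Pairs of other genes were not examined, so whether such ratios are particular to the 10 genes was not tested. Col9a1 and Col11a2 had the highest value, 6.76 (4.11 to 15.1 over samples), followed by Col11a2 and Acan with 6.35 (3.31 to 13.3), and Col9a1 and Acan stood at 5.68 (3.64 to 12.2). The exception was Col2a1 with Hapln1, at 1.78 with a range of 0.581 to 2.25.

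By gene, the median odds ratio with the other 9 was highest for Col9a1 (3.87) and Col11a2 (3.81) and lowest for Col2a1 (1.92) and Hapln1 (1.96). Within OPC-like cells alone the median over pairs was 2.74 and 42 of 45 pairs were above 1 in every sample, so the shared detection was also present inside a single state. Cells of 1 tumor are not replicates, and these ratios are a description.

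Col2a1 was used to order the tumor cells further, as 0 UMIs, 1 to 9 UMIs or 10 or more of the 3000, a range of 1 measure and not a cell type. On average 33.7%, 52.9% and 13.4% of tumor cells fell into these ranges, and the highest range held 12.2%, 13.8% and 2.48% of cells in the vehicle samples and 28.6% and 9.99% in the Xevinapant samples. Acan was detected in 36.7%, 52.9% and 90.4% of the cells of the 3 ranges, and Col11a2 in 50.5%, 61.9% and 92.5%. Mgp was detected in 7.41%, 13.2% and 38.6%. All 10 chondrocyte and bone markers were examined. Matn1, a cartilage matrilin, was in 2.67%, 5.51% and 22.6%, Cnmd, which encodes chondromodulin, in 4.24%, 5.65% and 18.8%, and Snorc, a chondrocyte proteoglycan gene, in 6.07%, 8.15% and 25.1%. The rarer Matn3 was in 0.156%, 0.279% and 0.664% and Ucma in 0.150%, 0.184% and 1.34%. At the highest range 48.4% of cells (21.5% to 64.8% over samples) held at least 1 of the chondrocyte and bone markers, against 15.5% of cells without Col2a1 UMIs. Vehicle 2 stood apart, with 21.5% against 17.2%. There Snorc was in 7.86%, 5.49% and 7.41% and Cnmd in 4.61%, 2.30% and 6.05% of the cells of the 3 ranges.

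Runx2, a transcription factor of bone and hypertrophic cartilage, was in 4.57%, 5.20% and 5.47% of the cells of the 3 ranges. The other 4 markers were too rare to compare. Col10a1, the collagen of hypertrophic chondrocytes, and Sp7, an osteoblast transcription factor, each had 1 cell in the highest range over all samples, as had Comp, a cartilage matrix gene, and Ibsp, a bone matrix gene, had 0. Olig2 was in 70.9% of the cells of the highest range (74.6% without Col2a1 UMIs) and Pdgfra in 42.0% (38.4%). All these cells had passed a gate that asked for UMIs of at least 4 of 10 glial genes, Olig2 and Sox10 among them, so that they carry such genes is set by the gate. Sox10 was in 67.5% of the cells with the most Col2a1 (36.2% to 87.95% over samples) and in 35.5% of those without (30.2% to 47.5%). Sox9, known as the chief activator of Col2a1 in cartilage, was in 46.8% (35.3% to 64.1%) and 61.4% (54.4% to 75.1%). In 4 of the 5 samples Sox9 was in fewer of the cells with the most Col2a1, and vehicle 2 went the other way (64.1% against 60.2%), with little change in Sox10 (36.2% against 31.1%). Vegfa was in 60.8% and 35.4% and Gpr17 in 74.3% and 46.7%. MES-like cells made up 13.3% of the highest range and 3.12% of the lowest, and AC-like cells 1.14% and 10.2%. Median depth before thinning was 14892 UMIs in the lowest and 16327 in the highest range, averaged over samples.

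**Figure D3:**
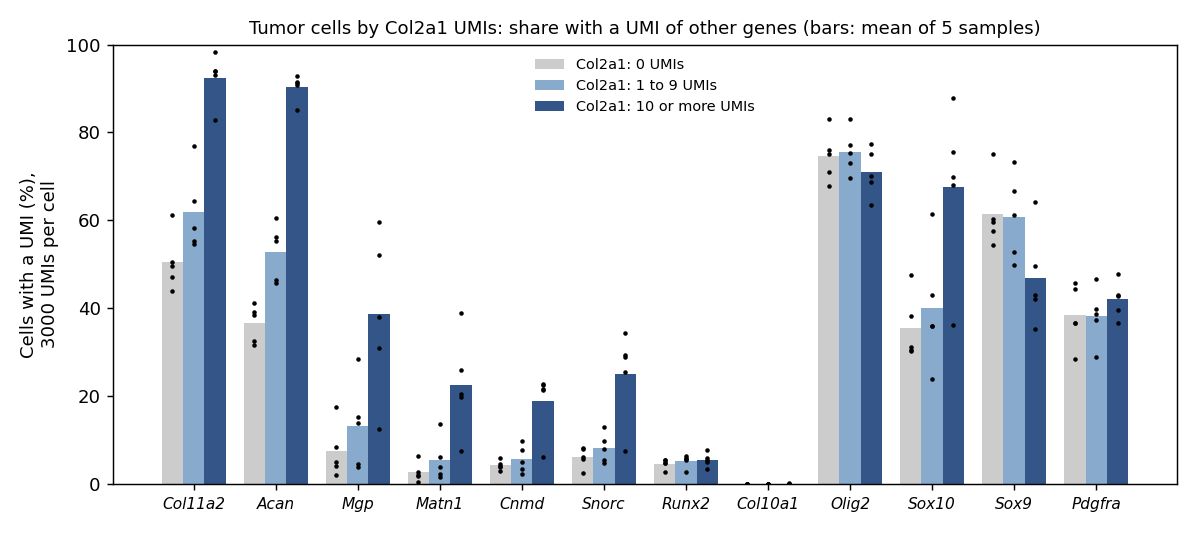
Share of tumor cells with a UMI of each gene (%, 3000 UMIs per cell) for cells with 0, 1 to 9 and 10 or more Col2a1 UMIs; bars are means of 5 samples and points are samples. The means of Acan, Col11a2, Mgp, Matn1, Cnmd and Snorc step up with Col2a1, though Cnmd and Snorc do not in vehicle 2. Col10a1 is at 0.140% or less in every sample, and the mean of Olig2 is at 70.9% to 75.6%.

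Across 49 profiles of samples and gated classes, the genes whose log2(CPM + 1) was most like that of a cartilage gene were ranked, gate genes included. Gpr17 and Sox10 belong to the gates, so they are high in the gated classes by construction. For Col9a1 they were Vxn, Gpr17 (both Pearson r = 0.94) and Tgfa (0.93), and for Col11a2 S100b, Sox10 and Fam184b (0.93 each), of 13808 genes compared. Sox10 was also among the genes nearest to Col9a3 (0.91). Col2a1 lay nearest to Lrp6 (0.88), and Acan to Susd5 (0.92). Among the 10 genes themselves the closest pair was Col9a1 and Col11a2 (0.97). Mgp was least like the rest, with r from 0.03 to 0.33 for the 8 genes other than Matn4, and its nearest gene was B3gnt9 (0.80). The profiles share samples and libraries, so these coefficients are descriptions.

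Mgp had a second place of high expression, in the stroma. In fibroblasts it was at 2236, 716 and 1361 CPM with vehicle and at 340.0 and 873 CPM with Xevinapant, above the tumor level of the same sample in 4 of 5 samples, Xevinapant 1 and 2 being the exception (340.0 against 557 CPM). The highest fibroblast held 46.1%, 45.9% and 23.8% of the Mgp UMIs in the vehicle samples and 18.8% and 12.6% in the Xevinapant samples. Without that cell the levels were 1244, 402 and 1057 CPM against 279 and 792 CPM. The share of thinned fibroblasts with an Mgp UMI was 38.6% ± 7.44, against 14.9% ± 12.5 of tumor cells. In cells gated by mural markers, the genes of pericytes and vascular smooth muscle, Mgp reached 270.1, 717, 1919.8 and 1837 CPM in the 4 samples with at least 10 such cells. Only 15 to 18 mural cells stood behind each of these values, and 1 cell held 36.1% to 72.6% of the Mgp UMIs. Fibroblast markers summed to 53845 to 136748 CPM in these cells, against 144869 to 195916 CPM in gated fibroblasts and at most 483 CPM in endothelial cells, and the part of this in their Mgp level was not tested. Matn4 ranged from 0% to 376% of the tumor level in fibroblasts and from 0% to 3100% in mural cells. Both highest values rested on few UMIs. In vehicle 4, 1 fibroblast held 12 of 15, and in Xevinapant 3 and 4, 1 mural cell held 13 of 14.

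Col11a1 was found in fibroblasts too, in 31.1% ± 9.76 of thinned cells against 10.8% ± 5.87 of immune cells. Its fibroblast level was 155, 80.8 and 480.2 CPM with vehicle and 137 and 221 CPM with Xevinapant and ranged from 7.61% (Xevinapant 1 and 2) to 149% (vehicle 4) of the tumor level of the same sample. Vehicle 4 was the only sample in which it was above the tumor level. In vehicle 4, 1 cell held 57.8% of the Col11a1 UMIs and the level without it was 207 CPM, whereas in Xevinapant 1 and 2 the highest cell held 5.06%. Several other genes were concentrated in single fibroblasts of vehicle 4. Col2a1 was found in 19.5% ± 8.09 of thinned fibroblasts, no more than in immune cells (19.8% ± 6.25). Col2a1 in the fibroblasts of vehicle 4 was at 2262 CPM, far above the 59.2 to 593 CPM of the other samples, and 1382 of its 1394 UMIs came from 1 of 77 cells. Without that cell the level was 19.9 CPM. The same sample's Acan, Col11a2 and Hapln1 UMIs were also mostly in 1 cell each (175 of 184, 197 of 221 and 20 of 20 UMIs). These cells passed the doublet filter, and what they are was not tested. The samples held 14 to 239 gated fibroblasts each. Hapln1 in endothelial cells averaged 39.0 ± 48.0 CPM, on 20 to 80 cells per sample, and in vehicle 2, the highest, 18 of 26 UMIs came from 1 cell.

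**Figure D4:**
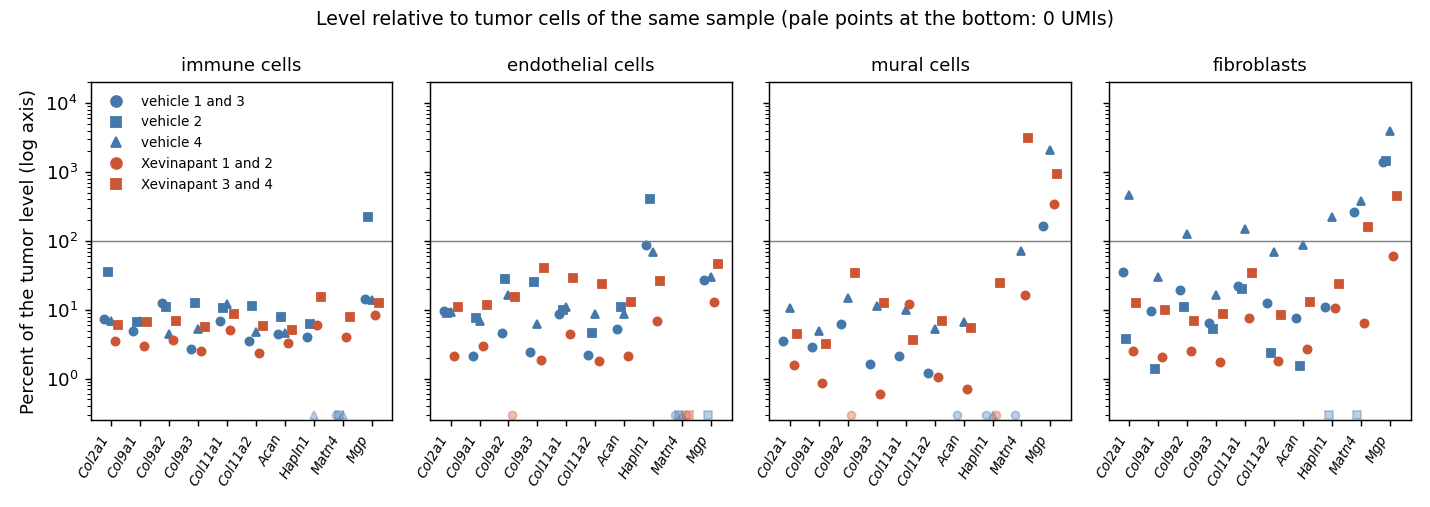
Level in immune, endothelial, mural and fibroblast cells as a percent of the tumor level of the same sample (log axis); the line is at 100% and pale points at the bottom had 0 UMIs. Most points lie below the line, and Mgp lies above it in 4 of 5 fibroblast samples and in all 4 mural samples. Matn4, on few UMIs, and some other genes also lie above it in single samples or more.

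The treatment comparison asked whether Xevinapant altered these genes in tumor cells. All 10 passed the filter on low counts in tumor cells and all 10 had higher fitted values with Xevinapant, but 0 were called by edgeR's quasi-likelihood test at an adjusted p under 0.05, as were 0 of 14352 genes (0%), of which 1509 had an unadjusted p under 0.05. Hapln1 was at -0.14 on the log2 scale with each matrix as 1 mouse. Log2 fold changes with their SE were 2.17 ± 0.69 for Mgp, 1.71 ± 0.59 for Col9a2, 1.61 ± 0.53 for Col11a2, 1.59 ± 0.48 for Col9a3 and 1.35 ± 0.46 for Col11a1. These 5 genes had an unadjusted p under 0.05, as did 5.11% of all genes in that direction, and each had an adjusted p of 0.463. Matn4 (1.95 ± 0.98), Col2a1 (1.09 ± 0.58), Col9a1 (0.85 ± 0.44), Acan (0.54 ± 0.38) and Hapln1 (0.11 ± 0.52) had adjusted p from 0.508 to 0.949. The median of the 10 was 1.47, against 0.00668 for all genes tested. The study picked genes as changed in these tumor cells. It then ran qRT-PCR on them in cultured patient-derived glioblastoma stem cells made resistant to Xevinapant, not in these mouse tumors. Its primers cover COL2A1, COL9A2, COL9A3, COL11A1, COL11A2 and MGP, so the treatment comparisons are no independent evidence for the 10 genes.

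In 3 of the 10 genes, Col9a2, Col9a3 and Mgp, both Xevinapant samples lay above all 3 vehicle samples, as they did for 18.2% of all genes. DESeq2 called 0 of the 10 genes and 1.51% of all genes, and edgeR with each matrix as 1 mouse called 0 of the 10 and 3.27% of all genes. Without Xevinapant 1 and 2 the median of the 10 was 0.31, 7 were above 0 and 0 had an unadjusted p under 0.05, where the Xevinapant arm was 1 sample and the spread came from the vehicle samples alone. No other left-out sample took the median of the 10 below 1.25.

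In MES-like cells, 2 of the genes passed the test. Col9a3 rose by 1.97 ± 0.23 on the log2 scale (adjusted p = 0.0302) and Col11a2 by 1.88 ± 0.28 (adjusted p = 0.0471), against 0.172% of the 11621 genes tested. The Col9a3 level was 579, 369 and 475 CPM in the vehicle samples and 2264 and 1499 CPM in the Xevinapant samples. Col11a2 was at 1139.7, 863 and 689.6 CPM with vehicle and at 4294 and 2384 CPM with Xevinapant. The groups did not overlap for either gene, and the same held for 8 of the 10 genes, all but Hapln1 and Matn4, against 18.7% of all genes. Mgp was at 337, 147 and 62.6 CPM against 1301 and 805 CPM, a log2 difference of 2.51 ± 0.54 that missed the threshold (adjusted p = 0.103). Without the barcodes that both groups share, Col9a3 kept its call (adjusted p = 0.0353) and Col11a2 lost it (adjusted p = 0.0515). Both calls were lost without vehicle 2 (adjusted p = 0.169 for both genes), without vehicle 4 (0.0605 and 0.0886) and without Xevinapant 1 and 2 (0.280 and 0.357). In these fits the log2 differences were 1.63 to 1.97 for Col9a3 and 1.38 to 1.85 for Col11a2, and in the last the Xevinapant arm was 1 sample, with the spread taken from the vehicle samples. DESeq2 kept both and added Col9a2 (adjusted p = 0.0287). In all tumor cells DESeq2 called 1.51% of all genes where edgeR called 0%, and its share in MES-like cells is not given here, so the added call is not weighed.

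**Figure D5:**
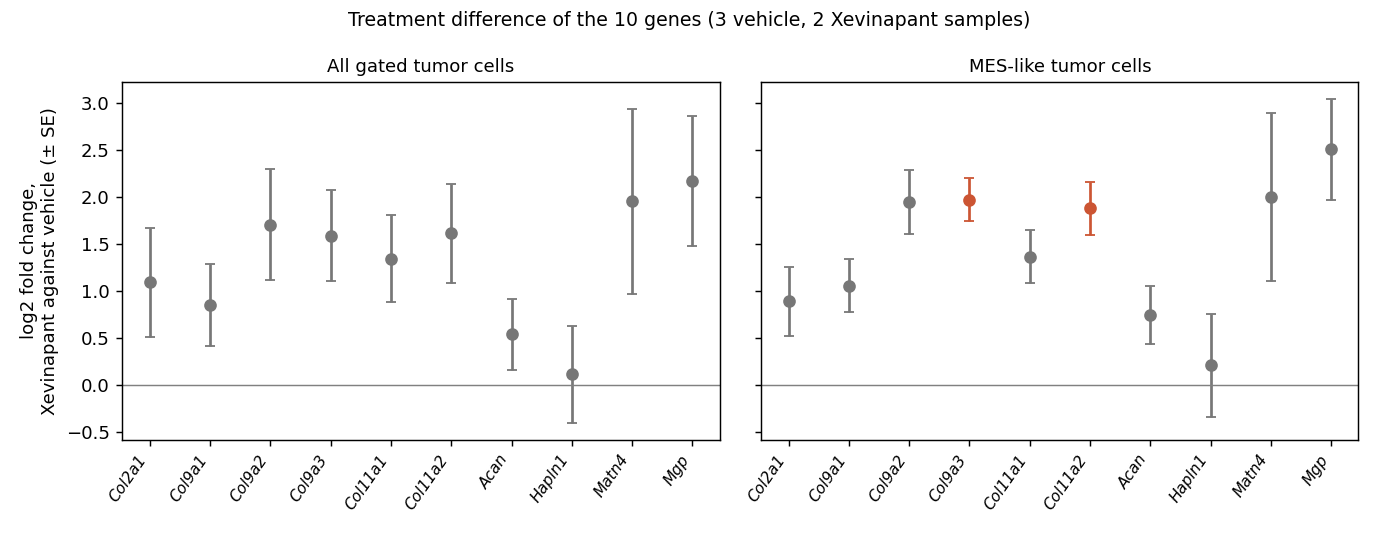
Log2 fold change of each gene, Xevinapant against vehicle, in all gated tumor cells (left) and in MES-like cells (right), with SE from 3 vehicle and 2 Xevinapant samples; red points passed an adjusted p of 0.05. Col9a3 and Col11a2 in MES-like cells are the red points.

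In the other states none of the 10 genes was called. For OPC-like cells 0.00728% of all genes were called, and the 10 genes ran from 0.23 (Hapln1) to 2.14 (Mgp) on the log2 scale, 6 of them at an unadjusted p under 0.05, as were 11.7% of all genes in either direction. For committed OPC-like cells 0% of all genes were called, 7 of the 10 were at an unadjusted p under 0.05 (16.6% of all genes), and the closest were Col9a3 (1.58 ± 0.35), Col11a2 (1.25 ± 0.29), Mgp (2.04 ± 0.47) and Col11a1 (0.99 ± 0.25), each with an adjusted p of 0.190. For AC-like cells 0% of all genes were called, 6 of the 10 were at an unadjusted p under 0.05 (7.25% of all genes), with Col9a2 at 1.63 ± 0.32 and Mgp at 2.22 ± 0.48 (adjusted p = 0.581 for both). NPC-like cells (0.0179% of all genes called) let 9 of the 10 be tested, and 2 of the 9, Col9a3 and Col9a2, had an unadjusted p under 0.05, against 10.2% of all genes. Mfap4 and Cpxm2 marked cells (0% called) had a median difference of 0.058 over the 10 genes, with 5 of 10 above 0 and 1, Col9a2, at an unadjusted p under 0.05, against 4.38% of all genes. Leaving out Xevinapant 3 and 4 changed the calls in NPC-like cells. The Xevinapant arm was then 1 sample with 26 NPC-like cells and the spread came from the vehicle samples alone, so those calls are not weighed. Whether the treatment difference itself differed between states was not tested.

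In fibroblasts, 8 of the 10 genes could be tested and 0 were called (0% of 8879 genes). The fitted differences had a median of -1.21, against -0.00994 for all genes, but this rested on vehicle 4, in which the highest fibroblast for each tested gene held 57.8% to 99.1% of its UMIs, or 23.8% for Mgp. Without vehicle 4 the median was -0.23 and 3 of the 7 genes then tested were above 0. With all samples Mgp had a log2 difference of -1.27 ± 0.52 in fibroblasts (adjusted p = 0.934), opposite in sign to that in tumor cells. The difference between both changes was -3.55 ± 0.75 for Mgp (adjusted p = 0.501), in a test that called 0% of 13506 genes. A single fibroblast held 46.1% of the Mgp UMIs in vehicle 1 and 3, and another held 45.9% in vehicle 2. Their part in these Mgp differences was not tested. Col2a1 was at -2.72 ± 1.02 in fibroblasts with the highest cell of vehicle 4 included. In endothelial cells 0 of 8 tested genes and 0.363% of all genes were called, with 6 of the 8 at an unadjusted p under 0.05, against 10.2% of all genes. Of these 6, Hapln1 was lower (-2.96 ± 0.80) and 5 were higher. The Hapln1 value rested on 10, 26 and 2 UMIs with vehicle and on 1 and 8 UMIs with Xevinapant. Single cells held 7 of the 10 UMIs in vehicle 1 and 3 and 18 of the 26 in vehicle 2. Fibroblast markers in endothelial cells summed to 77.6, 58.2 and 121 CPM with vehicle and to 274 and 483 CPM with Xevinapant, and chondrocyte and bone markers to 4.48 to 5.54 CPM against 10.8 and 20.8 CPM. Of the 8 fibroblast markers 3 to 5 were at 0, and of the 10 chondrocyte and bone markers 3 to 9. The part of both lists in these differences was not tested. The fit without Xevinapant 1 and 2 changed the calls but rests on Xevinapant 3 and 4 alone, with the spread taken from the vehicle samples, so its calls are not weighed. In Xevinapant 3 and 4, 1 of 80 endothelial cells held 153 of the 309 Col9a3 UMIs. Endothelial levels of the collagens averaged 6.31% to 15.3% of the tumor level, near the 5.60% to 11.7% of immune cells, the background used here. Tumor markers summed to 355 to 1145 CPM in endothelial cells, and the part of tumor RNA in these levels was not tested. Mural cells were too few to fit.

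Detection was compared by treatment as well, as a difference of shares in percentage points, which is another scale than log2. The thinned share of tumor cells with a Matn4 UMI was 0.789% with vehicle and 2.98% with Xevinapant. At such low shares its 2.19 percentage points cannot be set against its log2 difference of 1.95. The thinned share of tumor cells with an Mgp UMI was 7.65% ± 5.40 with vehicle (n = 3) and 25.8% ± 13.0 with Xevinapant (n = 2), and the exact two-sided permutation p was 0.1, the smallest that 3 samples against 2 allow. For Col9a2 the shares were 11.1% ± 4.58 and 24.6% ± 5.88 (exact permutation p = 0.1). Without thinning, the mean shares with vehicle and Xevinapant were 18.5% and 48.96% for Mgp and 32.4% and 54.1% for Col9a2. Col9a3 was in 56.6% ± 6.34 and 71.2% ± 13.3 of cells (exact permutation p = 0.2). With cells thinned to 5000 UMIs the exact permutation p was 0.2 for Col9a2 and 0.1 for Col9a3. The other 7 genes had exact permutation p of 0.2 to 0.8, Col2a1 being in 62.2% ± 14.9 and 72.3% ± 9.31 of cells (p = 0.4 by the same exact test).

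Related genes were examined in 6 lists. With treatment, 0 genes were called in any of them in all tumor cells or in MES-like cells, and in all tumor cells the median log2 difference was 0.54 for 13 of 18 other cartilage matrix genes that could be tested, 0.26 for 12 of 13 SOX and cartilage transcription factors, 0.24 for 11 brain lecticans, links and receptors, 0.17 for 24 of 26 genes of hyaluronan and chondroitin sulfate synthesis and aggrecanases, 0.30 for 23 of 24 genes of collagen assembly and -0.11 for 7 integrin and collagen receptors, beside 0.00668 for all genes. Marker genes were not tested between states. Matn1, Matn3, Comp, Col10a1, Cnmd, Snorc and Ucma of the other cartilage matrix genes were therefore left out. So were Sox8, Sox10 and Runx2 of the transcription factors. In committed OPC-like cells, 4 of 9 tested other cartilage matrix genes were higher and 3 lower than in OPC-like cells, against 15% and 19.5% of all genes. In MES-like cells 5 of these listed genes were higher and 2 lower (23.3% and 26.1% of all genes), and in NPC-like cells 0 and 5 (14.3% and 23.7%). In AC-like cells 4 of the listed genes were higher and 1 lower (29.7% and 30%), whereas Col2a1 and 8 others of the 10 were lower there. The genes named from here were chosen after their values were seen. The 4 higher ones in committed OPC-like cells were Matn2 (1.23), Hapln3 (1.21), Col27a1 (0.74) and Chadl (0.71), and the 3 lower ones Prelp (-2.57), Prg4 (-2.49) and Cilp2 (-1.35). Of 8 tested SOX and cartilage transcription factors, 3 were lower there, Foxc1 (-1.55), Mef2c (-0.92) and Sox9 (-0.85), and 1 was higher, Sox5 (0.83), which acts with Sox9 in chondrocytes.

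Of the 24 genes that modify, fold and cross-link collagen, 11 were higher in MES-like than in OPC-like cells (23.3% of all genes) and 1, Crtap (-0.37), was lower (26.1% of all genes). The largest was P4ha2, a prolyl hydroxylase subunit (3.80), followed by Loxl2, which cross-links collagen (2.82), and Plod2, a lysyl hydroxylase (2.42). MES-like cells were gated by hypoxia and mesenchymal genes, and the part of that gate in these differences was not tested. In AC-like cells 11 of the 24 were higher and 0 lower, against 29.7% and 30% of all genes. For NPC-like cells 0 were higher and 17 lower, against 14.3% and 23.7% of all genes. For committed OPC-like cells 3 were higher and 5 lower, against 15% and 19.5% of all genes.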

How the data were processed

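Single cells of orthotopic mGSC tumors were measured with a 10x Genomics kit for fixed cells, in which probe pairs are ligated and counted. The authors deposited 8 matrices of raw UMI counts, whole numbers for 19059 genes. The methods name Cell Ranger 3.0 and mm10, and the file headers name Cell Ranger 7.1.0. The deposited counts hold the caller's cells without the study's further filters. Barcodes under 200 genes, over 10% mitochondrial UMIs or under a complexity of 0.8 were left out, and 3612 doublets were removed by Scrublet score (scanpy 1.11.5) at 0.8% per 1000 barcodes, a higher rate than the labels give. Classes were gated by marker UMIs in cells with at least 1000 UMIs, with thresholds set after the depth of the cells was seen. The 10 genes, the lists and the tests were chosen with earlier results of these data known. The text names all 10 genes, for each the 3 genes most like it (some given here), and list genes past the threshold in the tumor-cell treatment test, of which there were 0. The list genes named for tumor states fall outside this rule and were chosen after their values were seen. Counts were summed per sample and class and fitted with edgeR 4.0.16 (glmQLFit, glmQLFTest, filterByExpr, TMM), Benjamini-Hochberg over all genes, threshold 0.05. State contrasts left out every gene of the marker lists, also those of lists that set no gate, such as the chondrocyte and bone markers. DESeq2 1.42.0, each matrix as 1 mouse, a replicate block, a stricter gate, other filters and leaving out each sample were alternatives. CPM is 1000000 times a gene's UMIs over all UMIs of the class. Probes differ between genes, so CPM levels were not ranked between genes. The edgeR script was checked on simulated counts.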

Additional observations from a re-analysis of the deposited data

How the results depend on the processing

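Of the settings tried for the comparisons, 125 gave the same or a nearly equal outcome and 18 moved the count of genes called further. Small changes of a count are among the 125, such as that to all 10 genes in NPC-like cells without the shared barcodes. Among single genes 677 kept direction and side of the threshold, 29 crossed it upward, 28 downward and 26 changed sign. The cause was not tested. With each matrix as 1 mouse, 4 genes were called for treatment in committed OPC-like and 6 in MES-like cells, 5 differed between MES-like and OPC-like cells and 6 between Mfap4 Cpxm2 and OPC-like cells, and 2 thinned shares had an exact permutation p of 0.0286, while Hapln1 turned to -0.14 (treatment, log2) and -0.434 percentage points (share) and Matn4 to -0.00822 in MES-like and -0.059 in AC-like cells. Calls over all genes rose in that setting too, to 3.27% in tumor cells against 0% in the main fit. Counts of the 10 genes in this section stand without the share of all genes called in the same fit. Fits that leave out a Xevinapant sample have 1 sample in that arm. With each matrix as 1 mouse and a replicate block, 0 of all genes were called for treatment in tumor cells, against 454 without the block, and 0 of the 10 genes in either. Nothing says that the matrix numbers pair samples. The stricter gate left 1 treatment call in MES-like cells, and turned Matn4 to -0.28 in AC-like and Col9a2 to 0.31 in NPC-like cells. DESeq2 called 1 gene for treatment in AC-like cells. Without the barcodes that both groups share, an alternative chosen after seeing the data, 1 treatment call was left in MES-like cells. Leaving out each sample in turn, calls for treatment ranged from 0 to 6 in MES-like, 0 to 3 in NPC-like and 0 to 3 in endothelial cells and 0 to 1 for fibroblasts against tumor cells, a test chosen after seeing the data, and calls between states from 4 to 8 (committed OPC-like) and 1 to 3 (MES-like). The log2 treatment difference then ranged from -0.038 to 1.39 for Col9a1, -0.00372 to 0.93 for Acan, -0.26 to 0.82 for Hapln1 and -0.75 to 2.84 for Matn4 in tumor cells, and from -0.23 to 1.29 for Hapln1 in MES-like cells. State differences ranged from -0.22 to 0.072 for Col9a3 and -0.34 to 0.18 for Matn4 (MES-like), -0.032 to 0.53 for Matn4 (AC-like), -0.67 to 0.17 for Col9a2 (NPC-like) and -0.26 to 0.12 for Col9a2 (Mfap4 Cpxm2). Treatment differences of thinned shares ranged from -4.32 to 16.6 percentage points for Col9a1, -3.06 to 21.7 percentage points for Col11a2, -4.31 to 15.1 percentage points for Acan, -1.11 to 3.24 percentage points for Hapln1, -0.234 to 4.62 percentage points for Matn4. With 3 against 2 samples, shares could not pass 0.05.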
